A study of Drosophila melanogaster with 20 samples.

Results

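Many Drosophila genes still carry only an annotation number, the letters CG and digits, in place of a descriptive name, and the genes described here are those of that kind whose signal was lower in late wing disc tumours than before tumours formed. The members were the probe sets with 1 CG symbol whose mean log2 level on the day 11 arrays was at least 1 below the mean at 12 hr with the same genotype, and whose highest day 11 array lay below the lowest 12 hr array. These limits were met by 85 of the 5743 probe sets with 1 CG symbol other than CG8916, out of 13441 with 1 gene symbol and 16322 in all, and each of the 85 is a different gene. Of the remaining 7698 probe sets with 1 symbol, CG8916 among them, 105 met the same 2 limits, so that 190 probe sets did in all, or 1.41% of those with 1 symbol. Since the day 11 and 12 hr values chose the members, the members' values in these groups are given as a description with no test, and members are tested only on the arrays of the other 3 groups. Neighbouring genes and marker lists, which are not members, are tested between EP_LNT and EP_Ctrl.

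Total RNA was hybridised to 1 Affymetrix array per sample, a sample being a pool of about 20 pairs of dissected wing discs, and there were 5 groups of 4 biological replicates. With psq RNAi on top of EGFR (EGFR+psqRNAi) the groups were EP_Ctrl at 12 hr, before tumours formed, EP_EHT at day 4, the early hyperplastic stage, and EP_LNT at day 11, the late neoplastic stage. With EGFR alone they were E_EHT at day 4 and E_Ctrl at 12 hr, so that EGFR was common to all 5 groups and no array came from discs without it. The submitters set E_EHT replicate 1 aside for technical problems, which left 19 arrays. The driver line, the age of the larvae and the sex of the animals are not given in the sources used here, and no day 11 group carried EGFR alone, so time and psqRNAi cannot be told apart at that stage.

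The wing imaginal disc is an epithelial sac of the larva that gives rise to the adult wing and notum, with muscle precursors on one face and trachea attached. EGFR is a receptor tyrosine kinase that drives growth of this epithelium, and psq (pipsqueak) encodes a DNA-binding protein that recognises GAGA-type sequences. Because each sample is a bulk extract, fewer cells of a type and less RNA per cell cannot be told apart in any result below.

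The log2 level of psq was 10.49 to 10.93 on the EP_EHT arrays, against 11.12 to 11.21 on the E_EHT arrays, and 10.62 to 10.93 on the EP_Ctrl arrays, against 10.81 to 10.93 on the E_Ctrl arrays. The groups overlapped at 12 hr and did not at day 4, and how the probes lie relative to the RNAi target was not stated. Wing disc markers, the mean of 8 measured of a list of 10 such as vg and nub, stood at 8.95 to 9.69 at day 11, 9.24 to 9.95 on the EP_EHT arrays, 9.86 to 10.14 on the EP_Ctrl arrays, 9.84 to 9.92 on the E_EHT arrays and 9.87 to 10 on the E_Ctrl arrays, against array medians over all 1-symbol probe sets of 7.29 to 7.38. Levels made with RMA have no true zero, so no marker can be called absent.

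The members differed in depth and in the day by which they were lower. The differences between EP_LNT and EP_Ctrl means ran down to -3.53 in log2, an 11.5-fold lower level, with a median of -1.36 or 2.56-fold. There were 6 members at -3 or below, 19 at -2 or below and 51 between -1.5 and -1. The median over the 85 members was 6.61 to 6.98 on the EP_LNT arrays, 7.12 to 7.70 on the EP_EHT arrays, 7.91 to 8.84 on the EP_Ctrl arrays, 7.62 to 7.89 on the E_EHT arrays and 7.96 to 8.44 on the E_Ctrl arrays. The order of these medians between EP_LNT and EP_Ctrl follows from the choice of members, whereas the EP_EHT and E groups were not used in it.

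**Figure D1:**
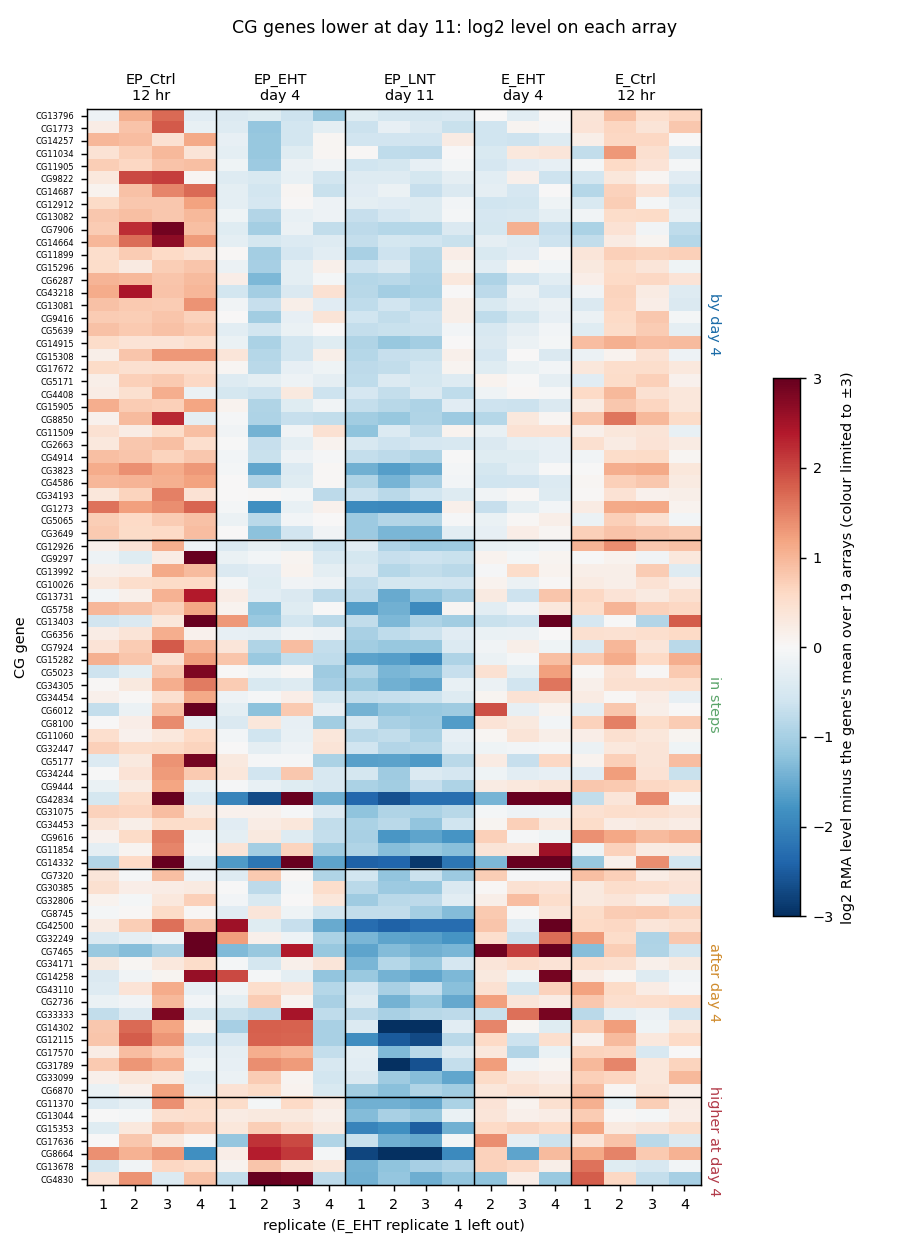
Each row is 1 of the 85 CG genes and each column 1 of the 19 arrays; colour gives the log2 RMA level minus that gene's mean over the arrays, limited to 3 on both sides, with genes grouped by the share of the day 11 difference already present at day 4. Most rows of the 34 genes in the by day 4 block are already pale or blue in the EP_EHT columns, whereas EP_EHT 2 and 3 are red for some of the 7 genes at the bottom.

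At the edge of the limits the members resembled genes that missed them. Just inside the limit on the mean were CG11034 and CG4408 at -1.005 and -1.006, and just outside were CG13067 and CG30288, both at -0.98. The highest day 11 array of CG13796 lay 0.02 below its lowest 12 hr array and that of CG1773 0.04 below, while the arrays of CG8888 and CG33463 overlapped, with gaps of -0.0025 and -0.03. A further 34 CG probe sets differed by -1 or more but overlapped, and 404 did not overlap but differed by less than 1.

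The deepest difference belonged to CG14332. Its log2 level was 7.46, 8.93, 13.24 and 7.95 on the EP_Ctrl arrays, 6.62, 6.17, 12.62 and 6.75 on the EP_EHT arrays and 5.92, 5.95, 5.43 and 6.16 on the EP_LNT arrays, a mean difference of -3.53 between day 11 and 12 hr. With EGFR alone it was 6.99, 12.24 and 12.69 on the E_EHT arrays and 7.20, 8.48, 9.73 and 7.79 on the E_Ctrl arrays. A single array was more than 4 log2 units above the next in both EP_Ctrl and EP_EHT, replicate 3 each time, and 2 of the 3 E_EHT arrays were high in the same way. Without EP_Ctrl replicate 3 the difference was -2.25.

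CG42834 and CG33333 lie beside each other on chromosome arm 3R, with no other measured gene between them, and CG14332 follows after 1 gene, CG42835, that was no member and differed by -0.25 ± 0.19 between day 11 and 12 hr. CG42834 read 8.54, 9.63, 13.59 and 8.66 on the EP_Ctrl arrays, 7.08, 6.39, 13.22 and 7.60 on the EP_EHT arrays and 6.72, 6.44, 6.81 and 6.81 on the EP_LNT arrays. CG33333 read 6.94, 7.25, 10.48 and 7.14 on the EP_Ctrl arrays, 7.01, 6.88, 10.16 and 6.91 on the EP_EHT arrays and 6.89, 6.71, 6.84 and 6.90 on the EP_LNT arrays. The same arrays were high for all 3 genes, EP_Ctrl replicate 3, EP_EHT replicate 3 and E_EHT replicates 3 and 4. Correlations between members were taken on deviations from the group means over the 19 arrays, those that chose the members included. On this measure CG42834 and CG14332 correlated with r = 0.993, CG33333 and CG42834 with 0.969, and CG33333 and CG14332 with 0.971. The median over all 3570 pairs of members was 0.158. The differences at day 11 were -3.41 for CG42834 and -1.12 for CG33333, and without EP_Ctrl replicate 3 they were -2.25 and -0.28, so the membership of CG33333 rested on that array.

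CG31789 and CG14302, on arms 2L and 3R, had their wide spread at day 11 instead. CG31789 read 12.47, 13.02, 12.78 and 11.55 on the EP_Ctrl arrays, 11.45, 13.10, 12.96 and 11.21 on the EP_EHT arrays and 11.38, 5.65, 9.09 and 10.98 on the EP_LNT arrays. CG14302 read 11.92, 12.83, 12.32 and 11.18 at 12 hr, 10.13, 12.93, 12.89 and 10.15 at day 4 and 10.71, 6.20, 8.05 and 10.81 at day 11. In both genes EP_LNT replicates 1 and 4 lay close to the lower EP_EHT arrays, and replicates 2 and 3 lay far below them. Their deviations from the group means correlated over the 19 arrays with r = 0.945, a pair chosen after its values were seen. The day 11 differences were -3.18 and -3.12. Without EP_LNT replicate 2 that of CG31789 was -1.97.

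CG12115, CG8664 and CG42500 completed the deep end with CG1273. CG12115 read 10.63, 11.61, 11.11 and 9.22 on the EP_Ctrl arrays, 9.29, 11.58, 11.55 and 8.82 on the EP_EHT arrays and 7.94, 7.29, 7.09 and 8.98 on the EP_LNT arrays, a difference of -2.82. CG42500 read 8.95, 9.45, 10.35 and 9.58 on the EP_Ctrl arrays, 11.23, 8.35, 8.01 and 7.18 on the EP_EHT arrays and 6.42, 6.28, 6.41 and 6.41 on the EP_LNT arrays, a difference of -3.20. The day 11 arrays of CG42500 stood within 0.14 of each other, while its day 4 arrays ranged between just above them and above every 12 hr array. CG1273 read 10.46, 10.07, 10.22 and 10.58 on the EP_Ctrl arrays, 8.77, 6.99, 8.62 and 8.96 on the EP_EHT arrays and 6.92, 6.89, 6.95 and 8.99 on the EP_LNT arrays, a difference of -2.90. For CG1273 day 4 lay wholly below 12 hr. EP_LNT replicate 4, at 8.99, lay near most day 4 arrays, while the other day 11 arrays were about 2 lower. EP_EHT replicate 2, at 6.99, lay near those lower day 11 arrays.

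**Figure D2:**
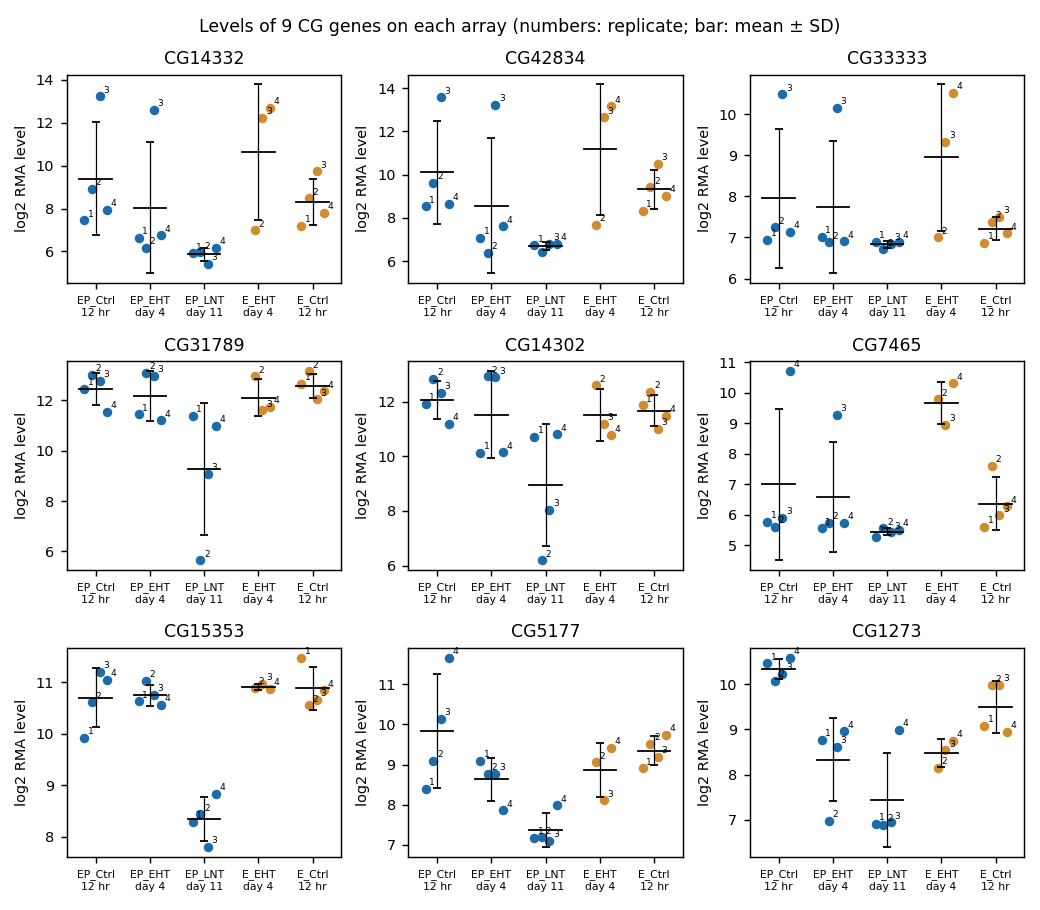
Points are the log2 RMA level of 9 CG genes on each array, numbered by replicate, with EGFR+psqRNAi in blue and EGFR alone in orange; the horizontal bar is the group mean and the whiskers the SD. For CG14332, CG42834 and CG33333 EP_Ctrl 3 and EP_EHT 3 stand far above the other arrays of their groups, at the height of E_EHT 3 and 4, EP_LNT 2 stands alone at the bottom for CG31789, and the day 11 arrays of CG15353 all lie below every other array.

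A few arrays carried much of the depth for other members too. The day 11 difference stayed at -1 or below without any 1 array for 61 of the 85 members, and it became more than 1.5 times smaller without 1 array for 12. Besides the genes above these were CG13796, at -0.67 without EP_Ctrl replicate 3, and 7 genes that depended on EP_Ctrl replicate 4. Without that array CG32249 differed by -1.31, CG6012 and CG14258 by -1.21 each, CG5023 by -1.03, CG13403 by -0.79, CG9297 by -0.52 and CG7465 by -0.31. EP_LNT replicate 4 was the highest day 11 array for 53 members, 62.4%, against 36.3% of all 1-symbol probe sets. That array also had the highest wing disc marker mean of its group, the lowest haemocyte marker mean, at 8.55 against 10.01 to 10.06, and the lowest mean of 3 genes of male dosage compensation, and the part of these in its levels was not tested.

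The timing was described by the share of the day 11 difference that was present at day 4 in the same genotype, that is EP_EHT minus EP_Ctrl over EP_LNT minus EP_Ctrl. The median share was 0.56, and 0.49 with E_Ctrl, which the rule did not use, as the 12 hr level. There were 34 members with a share of at least 0.667 (40%, by day 4), 26 with a share between that and 0.333 (30.6%, in steps), 18 with a smaller share (21.2%, after day 4) and 7 whose mean was higher at day 4 than at 12 hr (8.2%). All EP_EHT arrays lay below all EP_Ctrl arrays for 37 members, and 3.97% of all 1-symbol probe sets did so. All EP_LNT arrays lay below all EP_EHT arrays for 20 members, against 4.1% of all. Both held for 6 members, CG14664, CG31075, CG13992, CG32447, CG6356 and CG10026. The share of all probe sets for which both held was not computed. EP_Ctrl and EP_LNT arrays chose the members, so these counts are a description.

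**Figure D3:**
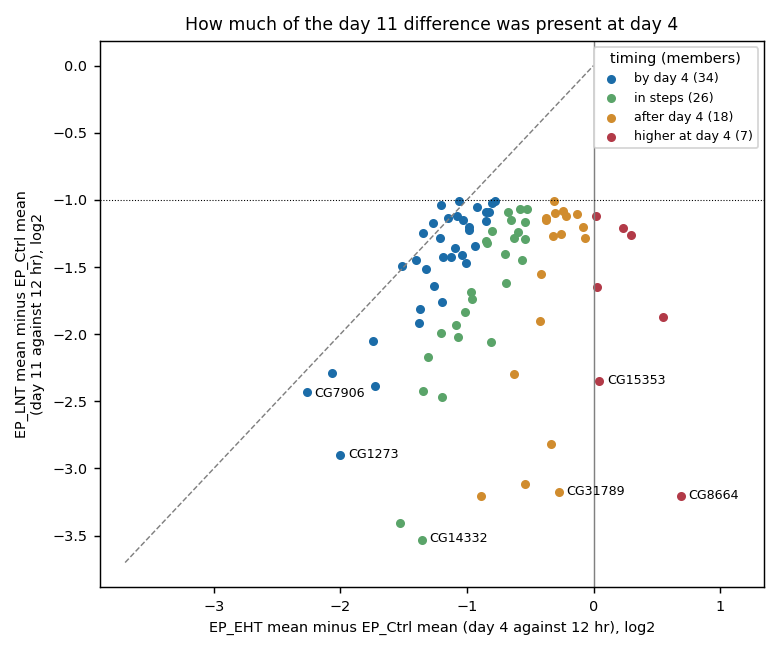
Each point is 1 CG gene, with the day 4 minus 12 hr difference on the x axis and the day 11 minus 12 hr difference on the y axis, both log2 within EGFR+psqRNAi. Points on the dashed line had the whole day 11 difference at day 4, as CG7906 nearly did, and points right of the vertical line, such as CG8664 and CG15353, were higher at day 4 than at 12 hr.

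CG7906 and CG14664 were among the members that were low by day 4. CG7906 read 7.05, 8.49, 9.18 and 7.20 on the EP_Ctrl arrays, 5.91, 5.28, 6.12 and 5.55 on the EP_EHT arrays and 5.50, 5.43, 5.43 and 5.85 on the EP_LNT arrays, so that a share of 0.93 of the difference of -2.43 was present at day 4. CG14664 read 7.03, 7.71, 8.70 and 7.31 at 12 hr, 5.73, 5.50, 5.61 and 5.63 at day 4 and 5.31, 5.49, 5.43 and 5.34 at day 11. The E_Ctrl arrays were low for both, at 5.34, 6.72, 6.17 and 5.52 for CG7906 and 5.29, 6.28, 6.11 and 5.17 for CG14664, and their E_EHT arrays read 5.75, 7.35 and 5.60 and 5.75, 5.64 and 5.40. E_EHT replicate 3 of CG7906 thus lay among its EP_Ctrl arrays, while no E array of CG14664 did. The largest shares were those of CG13796, CG14257 and CG1773, at 1.15, 1.08 and 1.08, for which the day 4 mean was the lower one.

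The 7 members that were higher at day 4 fell into those with like arrays and those with a split. CG15353 read 9.92, 10.61, 11.20 and 11.05 on the EP_Ctrl arrays, 10.63, 11.02, 10.75 and 10.56 on the EP_EHT arrays and 8.30, 8.44, 7.80 and 8.83 on the EP_LNT arrays, a difference of -2.35 with a share of -0.02. Its E_EHT arrays stood at 10.89, 10.97 and 10.87 and its E_Ctrl arrays at 11.47, 10.55, 10.65 and 10.84, so that day 11 alone was low among the 5 groups. CG8664 read 10.65, 10.33, 10.59 and 7.45 on the EP_Ctrl arrays, 9.50, 11.64, 11.41 and 9.23 on the EP_EHT arrays and 6.53, 6.27, 6.03 and 7.38 on the EP_LNT arrays. Its 12 hr group was 0.07 from overlapping with day 11, through EP_Ctrl replicate 4 and EP_LNT replicate 4. CG4830 read 7.46, 8.37, 6.61 and 7.90 at 12 hr, 6.28, 10.07, 9.93 and 6.24 at day 4 and 5.59, 5.86, 5.55 and 5.85 at day 11. In CG8664 and CG4830 EP_EHT replicates 2 and 3 were high and replicates 1 and 4 low, the pattern also seen at day 4 in CG31789, CG14302 and CG12115. CG13678 had the remaining share of the 3 lowest, -0.24, with a day 11 difference of -1.26.

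The 12 hr level with EGFR alone was usually below that with psqRNAi. The EP_Ctrl mean was above the E_Ctrl mean for 60 of 85 members, with a median difference of 0.35, and all EP_Ctrl arrays were above all E_Ctrl arrays for 12, against 3.89% of all 1-symbol probe sets. It was at least 1 higher for 6 members, CG7906 (2.04), CG14664 (1.97), CG43218 (1.25), CG9822 (1.23), CG14687 (1.11) and CG14332 (1.09). Choosing genes high in EP_Ctrl favours such differences, so nothing is read from them. Set against E_Ctrl, the day 11 mean was lower by at least 1 for 50 members, with a median of -1.19, and all EP_LNT arrays lay below all E_Ctrl arrays for 59, against 15.8% of all. Choosing genes low in EP_LNT favours these differences too, so the counts are only a description. The difference from E_Ctrl was above -0.5 for 7 members, CG7906, CG14664, CG9822, CG14687, CG13081, CG12912 and CG33333.

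The first comparison on arrays that did not choose the members asked whether these genes differed at day 4 without psqRNAi. In E_EHT against E_Ctrl, 6 members were lower and none higher in limma at an adjusted p below 0.05, that is 7.06% of the 85, while 3.27% of the 13441 probe sets tested passed, 1.94% lower and 1.33% higher. At an unadjusted p below 0.05 the count was 27, 31.8% of the members and 21.2% of all probe sets. The median log2 fold change was -0.31 for the members and 0.02 for all probe sets. Means were lower at day 4 for 62 of 85 members, against 45.9% of all probe sets. All E_EHT arrays lay below all E_Ctrl arrays for 26 members, against 14.8% of all, and above them for 1, CG7465, against 11.2% of all.

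CG12926 read 6.80, 6.83 and 6.91 on the E_EHT arrays, against 8.05, 8.43, 7.84 and 7.91 on the E_Ctrl arrays, a log2 fold change of -1.21 ± 0.13 (SE) with an adjusted p of 0.00241 in limma. CG14915 read 6.28, 6.55 and 6.66 against 7.63, 7.78, 7.65 and 7.67, a log2 fold change of -1.19 ± 0.15 and an adjusted p of 0.00672. In both the groups were more than 0.9 apart. CG15905 changed by -1.08 ± 0.21 (adjusted p = 0.0275), CG4586 by -0.99 ± 0.23 (0.0466), CG6356, whose RefSeq synonyms OCTN2 and Slc22a16 are those of organic cation and carnitine transporters, by -0.63 ± 0.07 (0.00305) and CG31075 by -0.59 ± 0.12 (0.0293). The count of 6 was 5 without E_Ctrl replicate 1 and 3 without any other 1 of the E_EHT and E_Ctrl arrays. It was 20 with array weights, 19 with only these groups fitted and 10 with all 19 arrays fitted or with dim probe sets removed. CG14915 passed under every alternative run, and CG12926 and CG6356 did not pass with E_EHT replicate 1 kept, with adjusted p of 0.35 and 0.495.

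CG7465 went the other way without passing. It read 9.79, 8.95 and 10.31 on the E_EHT arrays, against 5.61, 7.61, 5.98 and 6.29 on the E_Ctrl arrays, a log2 fold change of 3.31 ± 0.84 and an adjusted p of 0.0592 in limma. With psqRNAi only EP_Ctrl replicate 4, at 10.72, and EP_EHT replicate 3, at 9.29, were high, and the day 11 arrays read 5.29, 5.57, 5.43 and 5.51. CG14332, CG42834 and CG33333 also had higher E_EHT means, by 2.34 ± 1.67, 1.85 ± 1.65 and 1.73 ± 0.88, with adjusted p of 0.461, 0.564 and 0.289.

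Read by timing class, the members that were low by day 4 with psqRNAi had lower E_EHT than E_Ctrl means in 32 of 34 cases, with a median log2 fold change of -0.61. The mean was lower for 17 of the 26 in steps (median -0.15), 10 of the 18 after day 4 (-0.07) and 3 of the 7 higher at day 4 (0.01). Over all 1-symbol probe sets 45.9% had a lower mean in E_EHT than in E_Ctrl. The classes used no E array, and the difference between classes was not tested.

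**Figure D4:**
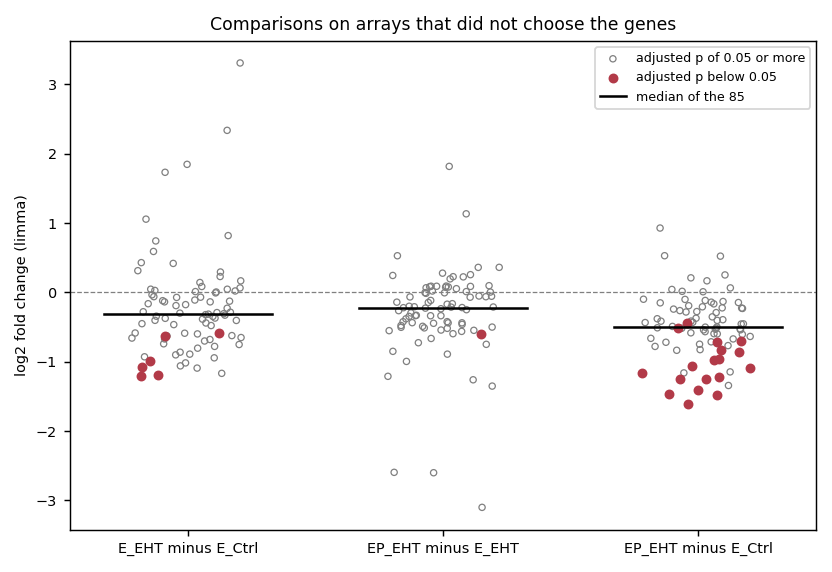
Each point is 1 of the 85 CG genes, placed by its log2 fold change in limma in the 3 comparisons that use no EP_Ctrl and no EP_LNT array; filled red points passed at an adjusted p below 0.05 and the bar is the median. The medians are -0.31, -0.22 and -0.50, and every point that passed, 6, 1 and 18 in turn, lies below 0.

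The second comparison asked whether psqRNAi changed these genes at day 4. In EP_EHT against E_EHT 1 member was lower and none higher, while 1.44% of all probe sets passed, 0.432% lower and 1% higher. At an unadjusted p below 0.05 there were 8, 9.41% of the members and 16.3% of all, and the median was -0.22 against -0.01 for all. The member was CG9444, at 7.61, 7.42, 7.28 and 7.16 on the EP_EHT arrays and 7.90, 7.95 and 8.03 on the E_EHT arrays, a log2 fold change of -0.60 ± 0.11 with an adjusted p of 0.0244 in limma. It did not pass without EP_EHT replicate 3 or without any 1 of the 3 E_EHT arrays. CG7465 was lower by -3.10 ± 0.84 without passing (adjusted p = 0.105).

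The third comparison set day 4 with psqRNAi against the 12 hr arrays without it, so that it covers time and genotype together. In EP_EHT against E_Ctrl 18 members were lower and none higher, 21.2% of the 85, while 4.93% of all probe sets passed, 2.13% lower and 2.8% higher. At an unadjusted p below 0.05 there were 38, 44.7% of the members and 17.7% of all, and the median was -0.50 against 0.00. The count was 11 without E_Ctrl replicate 2 and 6 with E_EHT replicate 1, an array of neither group, kept in the fit. This comparison shares E_Ctrl with the first and EP_EHT with the second, so the values stand side by side without a count of overlap.

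CG8850 changed most. It read 7.49, 6.60, 6.85 and 6.79 on the EP_EHT arrays, against 8.38, 9.14, 8.52 and 8.11 on the E_Ctrl arrays, a log2 fold change of -1.60 ± 0.29 with an adjusted p of 0.0104 in limma. Its RefSeq synonym DmNAT4 names it a nutrient amino acid transporter. CG14915 read 6.51, 5.78, 6.16 and 6.36 on the EP_EHT arrays, with a log2 fold change of -1.48 ± 0.14 (0.000232), and CG12926 read 6.60, 6.76, 6.66 and 6.38, with -1.46 ± 0.12 (0.000137). CG9616 followed at -1.40 ± 0.23 (0.00534), CG3649 at -1.25 ± 0.23 (0.0105) and CG13796 at -1.25 ± 0.17 (0.0022). The E_EHT means of CG8850, CG9616, CG3649 and CG13796 differed from E_Ctrl by -1.17, -0.94, -0.78 and -0.70, with adjusted p between 0.0614 and 0.104. Under all alternatives run CG8850, CG14915 and CG3649 passed, and CG12926, CG9616 and CG13796 lost the call in 1 of them, E_EHT replicate 1 kept.

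A role was assigned to 11 of the 85 members, from RefSeq synonyms or general knowledge of fly metabolism, and none was sought further for the rest. Of these 11, 4 are serine proteases or their homologues by synonym, CG4914 (SP39), CG1773 (SP74), CG43110 (SP248) and CG34171 (SPH244), with day 11 differences of -1.41 to -1.08. CG1773 was also lower in EP_EHT than in E_Ctrl, by -1.16 ± 0.20 (adjusted p = 0.00854 in limma). CG5065 (FAR1), a fatty acyl-CoA reductase by synonym, differed by -1.47 at day 11.

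CG6287 and CG11899 encode the first and second enzymes of serine synthesis from glycolysis. CG6287 read 12.00, 11.96, 11.82 and 11.94 on the EP_Ctrl arrays, 11.18, 9.63, 10.69 and 10.92 on the EP_EHT arrays and 10.13, 10.18, 10.05 and 11.30 on the EP_LNT arrays. CG11899 read 10.12, 10.34, 10.17 and 10.05 at 12 hr, 9.63, 8.56, 9.08 and 9.28 at day 4 and 8.61, 8.96, 8.75 and 9.77 at day 11. In both, EP_EHT replicate 2 and EP_LNT replicate 4 departed from their groups in the same direction, and the day 11 differences were -1.51 and -1.15. CG11899 passed in EP_EHT against E_Ctrl, at -1.06 ± 0.20 (adjusted p = 0.0122 in limma). CG6287 differed by -1.06 ± 0.31 in E_EHT against E_Ctrl with an adjusted p of 0.0836. The third enzyme is encoded by aay, no member, which differed by -0.10 ± 0.20 between EP_LNT and EP_Ctrl (adjusted p = 0.796 in limma).

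CG5177 and CG5171 are neighbours on arm 2L that encode phosphatases of the trehalose pathway, trehalose being the main blood sugar of insects. CG5177 read 8.40, 9.10, 10.15 and 11.66 on the EP_Ctrl arrays, 9.10, 8.78, 8.77 and 7.86 on the EP_EHT arrays and 7.18, 7.18, 7.09 and 7.99 on the EP_LNT arrays. CG5171 read 6.12, 6.65, 6.73 and 6.56 at 12 hr, 5.55, 5.65, 5.79 and 5.68 at day 4 and 5.17, 5.54, 5.43 and 5.56 at day 11. CG5171 had a share of 0.78 of its difference of -1.09 at day 4 and CG5177 0.49 of -2.46. The correlation of the pair's deviations from the group means was 0.241.

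Counting pairs with no other measured gene between them and starts within 20000 bases in RefSeq, 6 pairs of members held 11 genes. Besides the pairs on 2L and 3R above, CG7924, CG34244 and CG7906 lie in a row on 3L. CG7924 read 8.02, 8.35, 9.43 and 8.61 on the EP_Ctrl arrays, 7.96, 6.69, 8.52 and 6.89 on the EP_EHT arrays and 6.56, 6.46, 6.46 and 7.20 on the EP_LNT arrays. In deviations from the group means over the 19 arrays CG34244 followed CG7924 with r = 0.931. CG34244 correlated less with CG7906, at 0.593. The pairs CG13082 and CG13081 on 2L and CG34454 and CG34453 on 3L had r of 0.835 and 0.685. Of the 84 members that RefSeq placed, 18 lie on 2L, 14 on 2R, 20 on 3L, 23 on 3R and 9 on X, the last 10.7% against 15.5% of all placed genes.

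The nearest measured genes on both sides of the members that were not members themselves numbered 154. In limma between EP_LNT and EP_Ctrl, 17 were higher (11%) and 16 lower (10.4%), against 12% and 10% of all 1-symbol probe sets, with a median log2 fold change of -0.01 against 0.01. Of the 78 with a descriptive name 12 were higher and 12 lower, 15.4% each. Among the 7698 probe sets with another symbol 13.9% were higher and 11.8% lower. Of the 76 with a CG symbol, which by definition had not met the rule, 5 were higher (6.58%) and 4 lower (5.26%). Among the 5743 probe sets with a CG symbol, members included, 9.56% were higher and 7.68% lower. Over all 154 neighbours the shares were thus close to the background, and the differences by kind of symbol were not tested.

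Among the neighbours with the largest changes several were well known. Fbp1, a fat body protein that takes up larval serum protein, lies beside CG8100 and read 7.91, 8.75, 9.57 and 9.72 on the EP_LNT arrays, against 11.03, 11.51, 12.54 and 11.03 on the EP_Ctrl arrays, a log2 fold change of -2.54 ± 0.41 (adjusted p = 0.00026 in limma). Hr3, a nuclear receptor induced by the moulting hormone ecdysone, read 6.55, 6.86, 7.08 and 7.72 at day 11, against 9.26, 9.14, 9.32 and 9.67 at 12 hr, a change of -2.30 ± 0.45 (0.00122). The gene overlaps CG12912, whose levels were 6.09, 6.04, 5.99 and 6.29 at day 11, against 6.94, 7.18, 7.19 and 7.58 at 12 hr. Eip78C, another ecdysone-induced receptor, overlaps CG43218 and changed by -1.20 ± 0.23 (0.00121); it was singled out after its values were seen. The strand and position of the probes are not given in the sources used here, so the signals of overlapping genes cannot be told apart.

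Nplp4, a neuropeptide-like precursor gene beside CG15353, changed by -1.79 ± 0.53 (adjusted p = 0.0223 in limma), cysu beside CG14332 by -1.72 ± 0.32 (0.000768) and CG42846 beside CG34454 by -1.38 ± 0.44 (0.0311). The call of Nplp4 was lost without EP_Ctrl replicate 3 or 4 or EP_LNT replicate 3, and that of CG42846 without any of EP_Ctrl replicates 1 and 3 and EP_LNT replicates 2, 3 and 4, with adjusted p up to 0.0778 and 0.101 over all their alternatives.

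Other members stood beside genes that were higher at day 11. Jhbp7, by its name a juvenile hormone binding protein, read 11.99, 11.48, 11.47 and 10.33 on the EP_LNT arrays, against 7.06, 6.77, 6.62 and 8.34 on the EP_Ctrl arrays, a log2 fold change of 4.12 ± 0.41 (adjusted p = 2.73e-06 in limma), next to CG11854, whose day 11 difference was -1.45. CG32241 rose by 2.52 ± 0.43 (0.000404) on one side of CG32249, which differed by -2.30. CG14253, which overlaps CG31075, rose by 1.57 ± 0.27 (0.000466), while CG31075 read 7.41, 7.70, 7.66 and 7.78 at day 11, against 9.30, 9.26, 9.54 and 8.91 at 12 hr. EP_LNT replicate 4 was the lowest day 11 array for Jhbp7, CG32241 and CG14253.

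**Figure D5:**
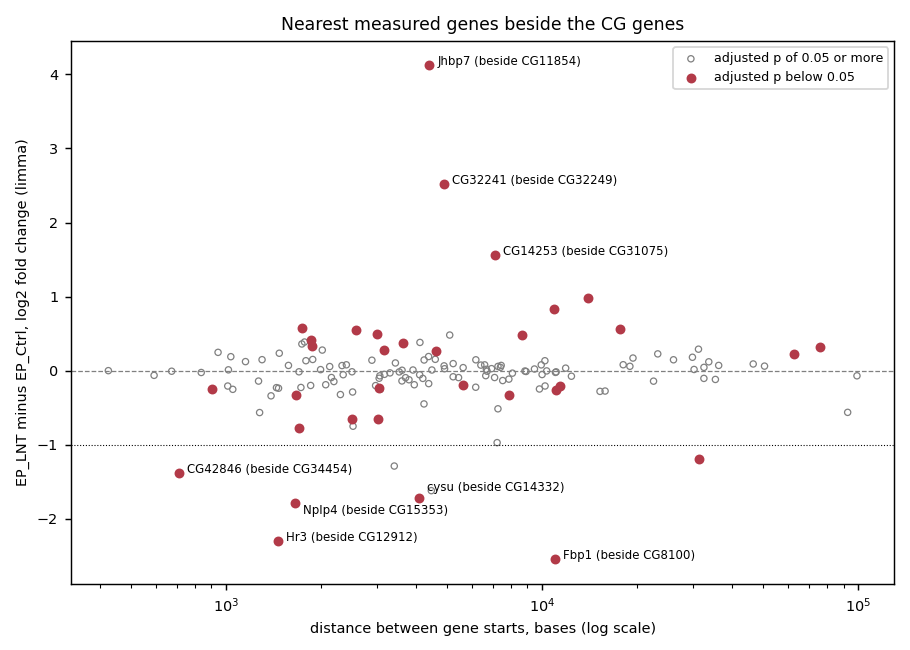
Each point is a measured gene next to a CG gene of the set, with the distance between gene starts in bases on a log x axis and its log2 fold change between EP_LNT and EP_Ctrl on the y axis; filled points passed at an adjusted p below 0.05 in limma. Of the 154 neighbours, 17 passed above 0 and 16 below, and Jhbp7 at 4.12 and Fbp1 at -2.54 lie farthest from 0. A gene between 2 members appears only once, at the shorter distance.

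Markers of other tissues moved between the same groups of arrays. Of all 1-symbol probe sets, 12% were higher and 10% lower in limma in this comparison. The mean level between EP_LNT and EP_Ctrl differed by -0.75 for wing disc epithelium (5 of 8 measured markers lower and none higher in limma). It differed by -2.85 for salivary gland (3 of 8 lower, none higher), with EP_LNT replicate 3 at 8.075 within the EP_Ctrl range of 8.071 to 11.417. It differed by -2.21 for fat body (3 of 3 lower), -1.40 for differentiated muscle (2 of 4 lower, none higher) and -0.48 for trachea (3 of 4 lower, none higher). It differed by 1.22 for haemocytes (6 of 9 higher, none lower, with EP_LNT replicate 4 at 8.55 within the EP_Ctrl range of 8.12 to 8.68), 0.93 for adult muscle precursors (5 of 5 higher), 0.62 for neurons and glia (2 of 6 higher, none lower, median 0.04), -0.43 for gut (1 of 6 higher, 1 lower, median 0.00) and -0.82 for the male list (none of 3 either way, with EP_LNT replicate 4 at 6.90 and the other day 11 arrays at 9.70 or more). Among genes of the ecdysone response 5 of 20 were higher and 10 lower, among cuticle genes 5 of 21 higher and none lower, and of psq and the other GAGA-type factor measured both were lower, with a mean difference of -0.33.

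Some members tracked these lists within groups. The share of all probe sets that did so was not computed, so the counts are only a description. The arrays used include those of EP_LNT and EP_Ctrl, which chose the members. Taking deviations from the group means over the 19 arrays, 22 members correlated with the wing disc mean at r of 0.7 or more, among them CG1273 (0.892), CG3823, CG6287, CG11899, CG4586, CG15905 and CG14915, a limit chosen after the data were seen. Of these 22, 7 passed the limit with the trachea list too, among them CG1273 (0.754) and CG34171 (0.748). Some of the 22 also ran against other lists. With the male list CG14915 (-0.801), CG5758 (-0.779) and CG11899 (-0.704) reached -0.7 or below, and CG14915 did so with haemocytes (-0.725). Another 4 members ran against the wing disc mean, CG33099 (-0.869), CG2736 (-0.751), CG8745 (-0.736) and CG8100 (-0.705). The mean of these 22 genes was 7.56, 7.58, 7.54 and 8.46 on the EP_LNT arrays, where the wing disc list stood at 8.95, 9.16, 9.13 and 9.69, and 9.27, 9.14, 9.18 and 9.38 on the EP_Ctrl arrays, where the list stood at 10.06, 9.87, 9.86 and 10.14. EP_LNT replicate 4 was the highest day 11 array for both, and it had the lowest male and haemocyte means of its group, at 6.90 and 8.55. The parts of wing disc content, haemocytes and sex in these differences were not tested.

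With differentiated muscle markers 7 members correlated in this way, CG5177 (0.907), CG32249 (0.803), CG6012, CG13731, CG5023 (0.949), CG7465 and CG9297. The marker mean was 8.92, 8.52, 8.28 and 8.62 on the EP_LNT arrays, against 9.04, 9.06, 10.01 and 11.82 on the EP_Ctrl arrays, and EP_Ctrl replicate 4 was the highest 12 hr array for the mean of the 7 as well, at 10.84. Their median day 11 difference was -1.99, and -1.21 without that array. The correlations were not taken again without EP_Ctrl replicate 4. With fat body markers 7 members correlated, CG7906, CG8850, CG9822, CG34193, CG9444, CG13796 and CG4408, with a median difference of -1.34, and -1.09 without EP_Ctrl replicate 3, which had the highest fat body mean, at 13.13, against 12.25 to 12.53 on the other EP_Ctrl arrays. CG31789 (0.806) and CG14302 (0.783) correlated with the gut list, both also against adult muscle precursors (-0.724 and -0.795), and CG43110 with the salivary gland list (0.79). What part muscle, fat body, gut or salivary gland RNA had in these members was not tested.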

How the data were processed

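The table that the authors deposited gives a log2 level for every probe set on every array; RMA and limma are named, without versions, in the submitters' processing notes. RMA makes the array distributions nearly equal and compresses dim signals. Whether E_EHT replicate 1 was normalized with the other arrays, and the genome build, are not given in the sources used here. Groups and replicate numbers came from the sample titles. Of 16322 probe sets the platform annotation gave 1 symbol for 13441, several for 555 and none used here for 2326; 84 of the 85 members matched the RefSeq gene table (Release 6 plus ISO1 MT), used for names, neighbours and chromosome arms, and CG11509 did not.

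Tests were limma 3.58.1 in R 4.3.3 (lmFit, eBayes, a mean per group), two-sided, with Benjamini-Hochberg adjustment over the 13441 probe sets and a threshold of 0.05. Comparisons of members were fitted on the 11 arrays of E_Ctrl, E_EHT and EP_EHT (8 residual degrees of freedom), neighbours on 19 arrays (14). Errors of fold changes are standard errors; arrays have no depth, and their number limits the precision (median standard error 0.093 to 0.1 over all probe sets, but 0.247 to 0.267 over the members). On simulated data drawn over all probe sets, which spread less than the members, 2-fold changes were recovered at 92.5% in E_EHT against E_Ctrl, 89.6% in EP_EHT against E_EHT, 86.6% in EP_EHT against E_Ctrl and 94% in EP_LNT against EP_Ctrl; of the 12 members that differed at least 2-fold in the first of these, 3 passed.

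Genes were named by rule: the 14 largest day 11 differences, the 3 largest and 3 smallest day 4 shares, up to 6 called members per comparison, adjacent members, those next to the limits and up to 8 called neighbours; others are followed where a result turns on them. Members, lists and tests were chosen with earlier results of these data known. Alternatives covered normalization, filters, variance models, blocks, groups fitted and left-out arrays. Sequences were not used here.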

Additional observations from a re-analysis of the deposited data

Results flagged for a closer look

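Among 152 sets of 4 arrays (38 named members in EP_Ctrl, EP_EHT, EP_LNT and E_Ctrl), 14 had 1 array standing apart, with a gap to the next array, as a share of the range of the group, above Dixon's 95% critical value. Dixon's value is set so that chance passes about 1 in 20, but the EP_Ctrl and EP_LNT values chose the members and members move together, so these 14 are a description and are not set against that rate; 10 of them lie in EP_Ctrl or EP_LNT. The 14 concerned 13 members, and 5 of them were EP_LNT replicate 4 above the other day 11 arrays. These 5 were CG14257 (gap 0.994 of the range; 7.67, the others 6.86 at most), CG1273 (0.973; 8.99 against 6.95), CG5177 (0.9; 7.99 against 7.18), CG7924 (0.864; 7.20 against 6.56) and CG3823 (0.858; 9.36 against 7.99).

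EP_LNT replicate 2 was low for CG42500 (gap 0.884; 6.28, the others 6.41 or more, a distance of little size) and CG34244 (0.847; 4.44 against 4.99). EP_EHT replicate 3 was high for CG33333 (0.962; 10.16 against 7.01), CG14332 (0.909; 12.62 against 6.75) and CG4408 (0.888; 8.03 against 7.21), and EP_EHT replicate 2 was low for CG13082 (0.884; 7.31 against 7.96). At 12 hr EP_Ctrl replicate 4 was high for CG32249 (0.931; 12.38 against 8.56) and low for CG8664 (0.898; 7.45 against 10.33), and EP_Ctrl replicate 3 was high for CG33333 (0.912; 10.48 against 7.25).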

How the results depend on the processing

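The largest called members and neighbours were followed gene by gene through the alternatives, and none changed sign. Test results that had not passed were not followed in this way. The count of 6 members in E_EHT against E_Ctrl was 10 without dim probe sets, 20 with array weights, 10 with all 19 arrays fitted, 19 with only those groups fitted and 3 to 5 without 1 array. The single member in EP_EHT against E_EHT was 0 with E_EHT replicate 1 kept, with all 19 arrays or only those groups fitted, and 0 to 1 without 1 array. The 18 in EP_EHT against E_Ctrl were 6 with E_EHT replicate 1 kept and 11 to 19 without 1 array. The 33 neighbours were 20 when only those within 5000 bases counted, and 24 to 35 without 1 array. The rule chose 34 members, not 85, with a difference of at least 1.5, and 73 to 106 without 1 array. The median share of 0.56 was 0.52 to 0.67 without 1 array, the highest value being without EP_EHT replicate 3. The cause of these shifts was not tested.

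Over all genes, deviations of same-numbered arrays correlated with r from -0.338 to 0.369 in the 6 pairs of groups compared. Differently numbered arrays ranged from -0.481 to 0.503. Deviations within so small a group depend on each other, so these values do not settle whether the numbers pair samples. With the replicate number as a block 3, 1, 15 and 35 passed in the 4 comparisons. CG15905, CG4586 and CG31075 in E_EHT against E_Ctrl lost the call under 7, 9 and 9 of 18 alternatives, left-out arrays among them. At day 11 the means of 19 members lay under 5.90, the lower quartile over all 1-symbol probe sets, where RMA compresses differences. Promoter motifs, a planned description, were not run.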
